A study of Rattus norvegicus with 36 samples.

Results

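Glial fibrillary acidic protein (Gfap, ENSRNOG00000002919), aquaporin 4 (Aqp4, ENSRNOG00000016043), S100b (ENSRNOG00000001295) and vimentin (Vim, ENSRNOG00000018087) are genes of astrocytes and of the astrocyte-like interstitial cells of the pineal gland. These 4 genes were chosen by name for what they mark, out of 29516 annotated genes, and the choice used no measured value but was made with earlier results of these data known. All 4 were present in the count file and the RPKM file of all 36 libraries and passed the filter on low counts in every comparison. RPKM is the number of read-pairs scaled to gene length and to the total read-pairs of the library, and is the scale on which different genes are compared below. The tests used counts normalized between libraries, so a fold can differ from the ratio of mean RPKM in size and in sign.

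The libraries were of total RNA from Sprague-Dawley rats, mostly from the pineal gland, which makes melatonin at night under the control of the superior cervical ganglia. In vivo, male and female rats kept on a light:dark cycle gave their glands at the age of 40 days, at ZT7 (day) or ZT19 (night). Control rats had no surgery, while the other 3 groups were operated on at postnatal day 5. In Sham rats the ganglia were exposed and left, in DCN (decentralized) rats the sympathetic trunk below the ganglia was cut, and in SCGX (ganglionectomized) rats the ganglia were removed. Each of these 8 combinations of surgery and time had 3 libraries, each made from pooled glands of several animals. In vitro, glands of adult female rats were kept in organ culture for 48 h and then for 6 h without treatment (Untreated), with 1 µM norepinephrine (NE) or with 500 µM dibutyryl cyclic AMP (DBcAMP), with 3 pooled libraries each. A further 3 single libraries were made from day glands, from night glands and from an equal mixture of RNA from 15 other tissues, several of them parts of the central nervous system.

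Most cells of the rat pineal gland are pinealocytes, and a minority are interstitial cells with astrocyte features. Gfap and Vim encode intermediate filament proteins of the glial cytoskeleton, Aqp4 encodes the water channel of astrocyte endfeet, and S100b encodes a calcium-binding protein that glia also secrete. Gfap and Aqp4 are largely restricted to astrocytes and kindred glia in the nervous system, whereas Vim is also made by endothelial cells, fibroblasts and many immature cells. Norepinephrine from the sympathetic fibers acts on pinealocytes through adrenergic receptors and raises cyclic AMP, and DBcAMP is a cell-permeable form of that messenger.

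All 4 genes matched the RefSeq promoter table of the GRCr8 assembly, which is not the rn4 assembly on which the reads were counted. The 250 bases before the start of 3 of the genes are shown because their levels are compared throughout, 5′ to 3′ on the strand of the gene, with motif matches in capitals.
Gfap, chr10:88361662-88361911, minus strand: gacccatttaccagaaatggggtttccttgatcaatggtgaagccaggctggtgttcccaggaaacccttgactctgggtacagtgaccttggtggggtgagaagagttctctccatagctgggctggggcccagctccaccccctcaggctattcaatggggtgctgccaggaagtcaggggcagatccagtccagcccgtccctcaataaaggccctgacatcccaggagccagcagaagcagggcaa
S100b, chr20:12381082-12381331, minus strand: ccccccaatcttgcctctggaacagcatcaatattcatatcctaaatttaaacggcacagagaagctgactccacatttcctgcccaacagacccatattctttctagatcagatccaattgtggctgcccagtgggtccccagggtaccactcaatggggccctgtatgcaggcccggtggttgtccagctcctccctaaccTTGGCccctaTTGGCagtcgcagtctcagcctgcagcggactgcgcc
Vim, chr17:81577011-81577260, plus strand: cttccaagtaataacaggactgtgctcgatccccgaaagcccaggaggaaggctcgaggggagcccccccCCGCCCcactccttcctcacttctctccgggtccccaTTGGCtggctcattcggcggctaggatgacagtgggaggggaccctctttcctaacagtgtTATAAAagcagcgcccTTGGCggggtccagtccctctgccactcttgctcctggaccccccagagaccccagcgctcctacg

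The letters of 7 motifs were searched on both strands of these windows and of the windows before the 2 RefSeq starts of Aqp4. S100b held the nuclear factor I half-site TTGGC at 47 and at 37 bases before the start. Vim held TTGGC at 143 and 66 bases, TATAAA at 82 bases and the GC box GGGCGG, on the opposite strand, at 180 bases. Aqp4 held a GC box at 126 bases before the first of its starts. TTGGC was found in 40.3% of all 33469 promoter windows of this length, GGGCGG in 30.5% and TATAAA in 12.9%. The cyclic AMP response element half-site TGACG (18.2% of windows), TTCNNNGAA (7.67%), TGANTCA (6.34%) and CACGTG (5.59%) had no match in the windows of the 4 genes, and Gfap had no match to any of the 7. No matches overlapped each other. The G+C content was 57.6% before Gfap, 54.8% before S100b and 62.4% before Vim.

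The read-pairs counted on genes were between 12985072 and 18504240 per library in vivo, between 12556861 and 18524435 in vitro and between 28836161 and 38574186 in the 3 single libraries. The third Sham night library and the first DCN day library stood apart in vivo, at 47.65 and 54.77 on the second principal component of the 500 most variable genes, where the other 22 lay between -18.9 and 1.69. None of the 4 glial genes was among those 500. The same libraries had a higher share of read-pairs on 1928 genes that were over 8-fold higher in mixed tissue than in either single pineal library. The 4 glial genes were left out of this list. That share was 1.21% in the third Sham night library and 0.930% in the first DCN day library, against 0.181% to 0.388% in the other 22. The mixture includes parts of the central nervous system, so the list may hold other glial genes, which was not tested. Many results that use these libraries are therefore given with and without them.

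In vivo Vim was the most abundant of the 4 genes per length and Gfap and Aqp4 the least. Over the 24 in vivo libraries Vim was between 78.8 and 271.4 RPKM (median 124.3), S100b between 13.7 and 114.7 (median 41.4), Aqp4 between 6.09 and 48.3 (median 14.7) and Gfap between 3.46 and 59.3 (median 13.5). The highest library exceeded the lowest 17.1-fold for Gfap, 8.40-fold for S100b, 7.93-fold for Aqp4 and 3.44-fold for Vim. In the 9 cultures Vim was higher, between 159.0 and 303.0 RPKM, while Aqp4 was between 1.02 and 1.77 and Gfap between 1.98 and 8.11. When the 11 pineal conditions were ordered by mean level, neighbors overlapped in range throughout for Gfap and Vim. The only gaps between neighbors were between Control night and NE for Aqp4 and between SCGX day and Untreated for S100b.

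**Figure D1:**
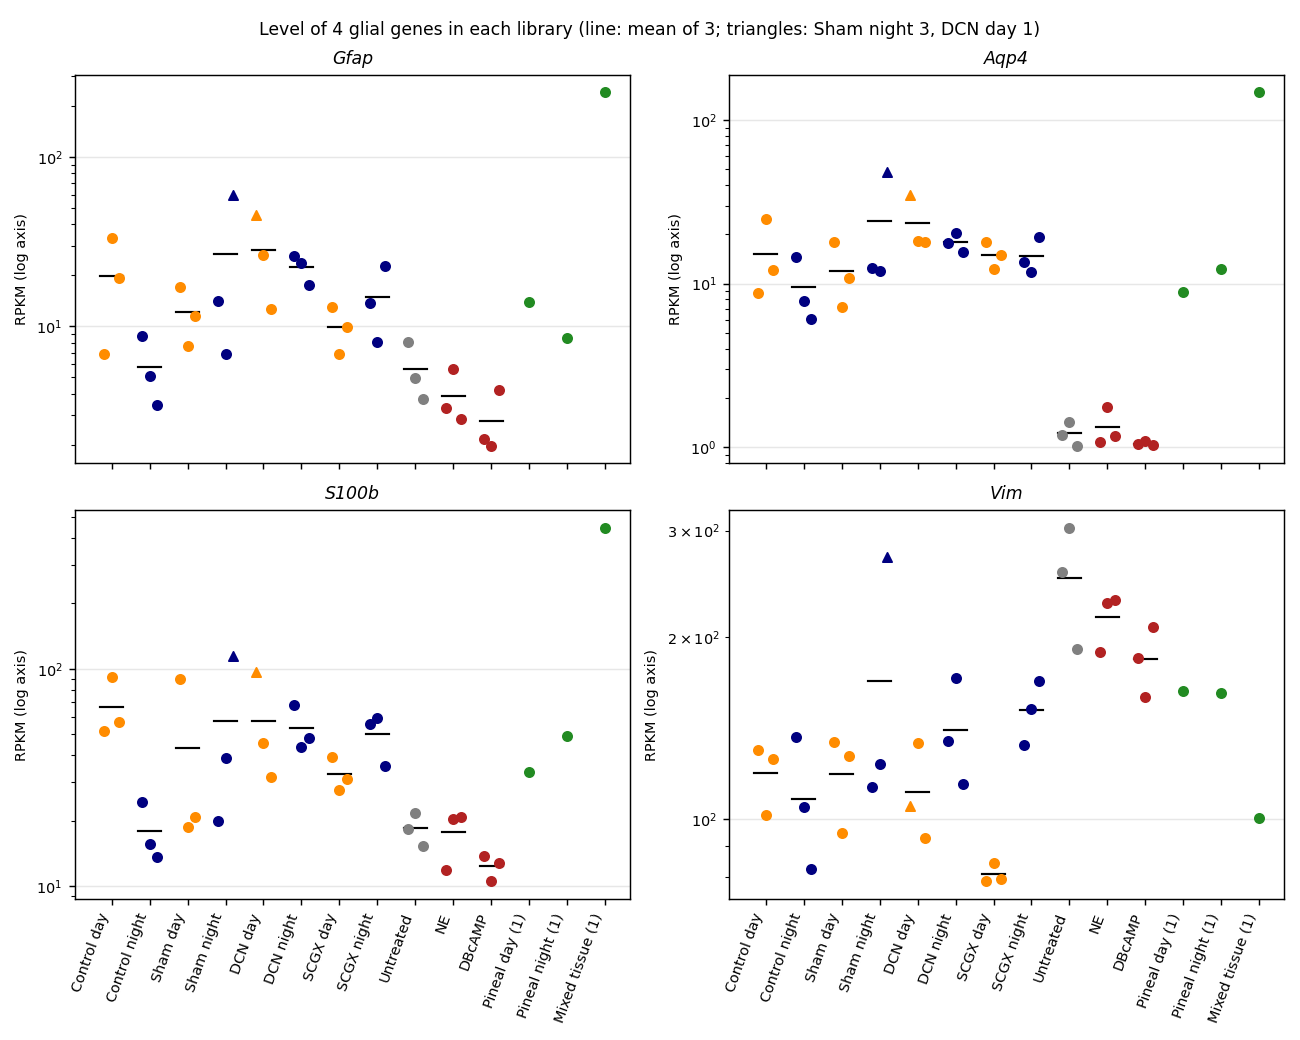
Level of Gfap, Aqp4, S100b and Vim in each of the 36 libraries, in RPKM on a log axis, by condition. Points are libraries, lines are means of 3, and triangles mark the third Sham night and the first DCN day library. The 9 cultured libraries lie below all 24 in vivo libraries for Aqp4, where the highest culture is at 1.77 RPKM and the lowest in vivo library at 6.09.

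In the Control group S100b and Gfap were lower at night, with no detected difference for Aqp4 or Vim. S100b was at 51.5, 92.0 and 56.9 RPKM by day (66.8 ± 22.0, SD, n = 3) and at 24.4, 15.6 and 13.7 at night (17.9 ± 5.75, n = 3). Every day library was thus above every night library, and S100b fell 3.35-fold (log2 fold change -1.74, SE 0.27, adjusted p = 0.00121). Gfap was at 6.91, 33.1 and 19.4 RPKM by day (19.8 ± 13.1) and at 8.74, 5.11 and 3.46 at night (5.77 ± 2.70). The first day library lay within the night range, and the fall of Gfap was 3.09-fold (log2 fold change -1.63, SE 0.52, adjusted p = 0.0378). These 2 of 4 calls compare with 35.2% of the 15619 genes tested in this comparison, using an adjusted p-value under 0.05 in edgeR's quasi-likelihood test. The share of read-pairs on genes high in mixed tissue, defined above, was also lower at night without overlap. It was at 0.251%, 0.209% and 0.181% against 0.270%, 0.278% and 0.282% by day, and its part in these differences was not tested. The share is taken of library totals, without the normalization used in the tests. By library size only the log2 fold change of S100b was also lower, at -1.90. How far this scaling sets the gap between the shares was not tested. In these bulk libraries, fewer cells of a type and less RNA per cell cannot be told apart.

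The calls differed in how far they depended on single libraries. S100b passed the threshold when any 1 of the 6 libraries was left out. Gfap lost it without the second or the third day library or without the second or the third night library, with adjusted p-values between 0.0722 and 0.145. Its log2 fold change was -1.002 without the second day library and between -1.37 and -1.67 in the other 3 of these cases. The call was lost, too, with DESeq2 (adjusted p = 0.0627) and in the model of all 24 in vivo libraries (adjusted p = 0.0572). Over all 13 alternatives the adjusted p of Gfap was between 0.00486 and 0.145, and that of S100b between 1.45e-05 and 0.0225. In the single day and night pineal libraries, which have no replicates, S100b went the other way, at 33.5 RPKM by day and 48.9 at night. Gfap was at 14.0 RPKM by day and 8.59 at night in these libraries. Aqp4 was at 8.71, 24.8 and 12.2 RPKM by day (15.2 ± 8.48) and at 14.5, 7.83 and 6.09 at night (9.48 ± 4.46). Its ranges overlapped (log2 fold change -0.54, adjusted p = 0.342). Vim was at 130.2, 101.5 and 125.6 RPKM by day (119.1 ± 15.4) and at 136.3, 104.5 and 82.5 at night (107.8 ± 27.0). Its difference in the test was close to 0 (log2 fold change 0.02, SE 0.16, adjusted p = 0.924), and by library size only the log2 fold change was -0.14.

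In the Sham group none of the 4 genes passed the test for a night/day difference, against 20.7% of all genes tested. S100b was at 89.9, 18.7 and 20.7 RPKM by day (43.1 ± 40.5) and at 19.9, 38.6 and 114.7 at night (57.8 ± 50.2). The first day library and the third night library were each far above the other libraries of their group, so that the ranges overlapped almost entirely (log2 fold change 0.46, SE 0.80, adjusted p = 0.736). Without the third night library the log2 fold change of S100b was -0.38 (adjusted p = 0.757). Gfap was at 17.0, 7.66 and 11.6 RPKM by day (12.1 ± 4.70) and at 14.2, 6.92 and 59.3 at night (26.8 ± 28.4). The 59.3 RPKM was in the library that stood apart, and the log2 fold change of Gfap was 1.19 with it and -0.02 without it (adjusted p = 0.31 and 0.982). Aqp4 was at 17.9, 7.22 and 10.9 RPKM by day (11.99 ± 5.42) and at 12.5, 11.9 and 48.3 at night (24.2 ± 20.8). Its log2 fold change was 1.06 with the library that stood apart and 0.20 without it (adjusted p = 0.261 and 0.724). Vim was at 134.2, 94.7 and 126.9 RPKM by day (118.6 ± 21.0) and at 112.9, 123.0 and 271.4 at night (169.1 ± 88.7), with a log2 fold change of 0.57 and 0.17 (adjusted p = 0.268 and 0.469). None of the 4 had an unadjusted p-value under 0.05 here, and DESeq2 called none. In the edgeR model of all in vivo libraries Vim passed (log2 fold change 0.60, adjusted p = 0.0439). Over all alternatives its adjusted p was between 0.0439 and 0.527.

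Whether the night/day difference itself changed with sham surgery was tested as an interaction. The interaction was 2.88 on the log2 scale for Gfap (SE 1.04, adjusted p = 0.596) and 2.27 for S100b (SE 0.95, adjusted p = 0.606), and neither passed, nor did Aqp4 or Vim. Only 0.0126% of all genes passed this test. Without the third Sham night library the values were 1.60 for Gfap and 1.36 for S100b (adjusted p = 0.874 and 0.923). They were highest at 3.34 for Gfap without the second Sham night library and at 3.42 for S100b without the first Sham day library, again with no call. The fall of S100b at night in Control rats was therefore not shown to differ from the Sham rats.

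In DCN rats none of the 4 genes differed detectably between night and day, and neither did any other gene by edgeR (0.0% of 15927 genes). An unadjusted p-value under 0.05 was found for 1431 genes, none of them glial genes of this set, and DESeq2 called 105 genes and none of the 4. Gfap was at 45.5, 26.5 and 12.7 RPKM by day (28.2 ± 16.5) and at 26.1, 23.6 and 17.5 at night (22.4 ± 4.41). Aqp4 was at 34.6, 18.2 and 17.9 by day (23.6 ± 9.60) and at 17.6, 20.5 and 15.7 at night (18.0 ± 2.42). S100b was at 96.2, 45.3 and 31.7 by day (57.7 ± 34.0) and at 67.8, 43.7 and 47.9 at night (53.1 ± 12.9). The highest day value of these 3 genes was in each case in the first DCN day library, which stood apart. Leaving it out turned the log2 fold change from -0.30 to 0.24 for Gfap, from -0.36 to 0.02 for Aqp4 and from -0.09 to 0.50 for S100b, with no call either way. Vim was at 105.1, 133.6 and 93.0 RPKM by day (110.6 ± 20.8) and at 134.5, 171.1 and 114.4 at night (140.0 ± 28.7), with a log2 fold change of 0.37 (SE 0.16, adjusted p = 0.561). Without the first DCN day library the log2 fold change of Vim was 0.34 (adjusted p = 0.803).

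In SCGX rats Vim was higher at night, and this was the only one of the 4 genes that passed the test. Vim was at 78.8, 84.4 and 79.4 RPKM by day (80.9 ± 3.10) and at 132.6, 151.8 and 169.3 at night (151.3 ± 18.3). The ranges lay well apart, and Vim rose 1.83-fold (log2 fold change 0.87, SE 0.085, adjusted p = 0.00333), where 1.79% of all genes passed. The share of read-pairs on genes high in mixed tissue was likewise higher at night without overlap, at 0.269% to 0.281% against 0.225% to 0.258%. Its part in the rise was not tested. The call remained when any 1 library was left out, with a log2 fold change between 0.78 and 0.95. It was lost, at almost the same size, when all 24 in vivo libraries shared 1 estimate of the spread per gene (log2 fold change 0.85, adjusted p = 0.239), the highest value among alternatives that reached down to 4.98e-17 with DESeq2.

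The other genes of the SCGX group had no call. Gfap was at 13.1, 6.89 and 9.92 RPKM by day (9.97 ± 3.11) and at 13.8, 8.11 and 22.6 at night (14.9 ± 7.31), with overlapping ranges (log2 fold change 0.53, adjusted p = 0.462). Aqp4 was at 17.9, 12.2 and 14.9 by day (15.0 ± 2.81) and at 13.6, 11.8 and 19.2 at night (14.8 ± 3.86), the smallest of the 4 night/day differences of this gene (log2 fold change -0.05, SE 0.18, adjusted p = 0.913). S100b was at 39.0, 27.8 and 31.2 by day (32.7 ± 5.78) and at 55.9, 59.3 and 35.6 at night (50.3 ± 12.8). The third of its night libraries overlapped the day range (log2 fold change 0.59, SE 0.19, adjusted p = 0.146), and without that library S100b passed (log2 fold change 0.78, adjusted p = 0.0402).

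Neither interaction with the Sham group was called for any of the 4 genes. The night/day difference of Vim in SCGX exceeded that in Sham by 0.25 on the log2 scale (SE 0.34, adjusted p = 0.684), while 18.5% of all genes passed. Without the third Sham night library the same interaction was 0.68 and passed (adjusted p = 0.0185, where the alternatives ranged from 0.0185 to 0.926), so a single Sham library decided this result. Between SCGX and DCN the interaction of Vim was 0.50 (SE 0.20, adjusted p = 0.432), and no gene passed by edgeR (0.0% of 15774, of which 1676 had an unadjusted p-value under 0.05 and DESeq2 called 43). Without the first DCN day library this interaction of Vim was 0.53 (adjusted p = 0.439). The DCN and Sham groups gave no call for the 4 genes either, against 11.3% of all genes. There the interaction of Gfap was -1.50 (SE 0.90, adjusted p = 0.321), and it was 0.26 without both libraries that stood apart.

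**Figure D2:**
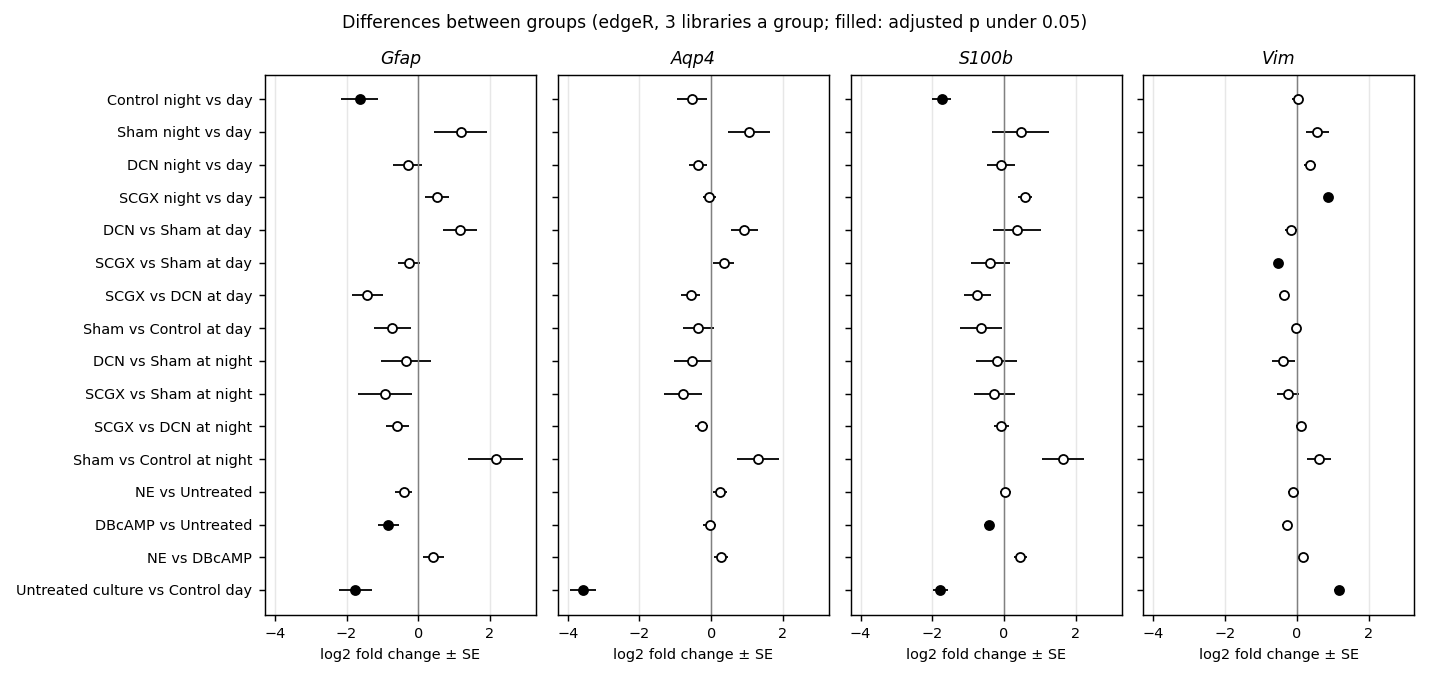
Log2 fold change of each gene in the 16 comparisons of groups, with bars of 1 SE from edgeR's model. Filled points passed an adjusted p-value under 0.05. Filled points occur for Gfap and S100b in Control night vs day, DBcAMP and culture, for Aqp4 in culture, and for Vim in SCGX night vs day, SCGX vs Sham at day and culture.

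Comparing surgeries at a fixed time of day, Vim was lower in SCGX than in Sham glands by day. The SCGX day values of 78.8 to 84.4 RPKM lay below the Sham day values of 94.7 to 134.2 without overlap, and Vim fell 1.44-fold (log2 fold change -0.53, SE 0.12, adjusted p = 0.0269). This was the only call among the 4 genes, where 11.4% of all genes passed. It was lost without the third Sham day library or without any 1 of the 3 SCGX day libraries, with adjusted p-values between 0.0502 and 0.104, and in the model of all in vivo libraries (adjusted p = 0.138, where the alternatives ranged from 0.000216 to 0.138). Against DCN by day, Vim in SCGX was also lower without overlap, with a log2 fold change of -0.37 that missed the threshold (SE 0.11, adjusted p = 0.158), and 0.761% of all genes passed. DESeq2 called that difference (adjusted p = 0.0457, with a range of 0.0457 to 0.458 over the alternatives). Without the first DCN day library the log2 fold change was -0.41 by edgeR (adjusted p = 0.109).

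For S100b the comparison of SCGX with Sham by day turned on a single Sham library. The log2 fold change was -0.38 (adjusted p = 0.703) with all libraries, and 0.75 (adjusted p = 0.0156) when the first Sham day library, at 89.9 RPKM, was left out. Aqp4 passed in the same comparison without that library (log2 fold change 0.76, adjusted p = 0.0456) and had a log2 fold change of 0.35 with it (adjusted p = 0.484).

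Gfap and Aqp4 had their highest day means in DCN glands, but the differences did not pass. Gfap in DCN compared with Sham by day had a log2 fold change of 1.16 (SE 0.46, adjusted p = 0.203) and Aqp4 one of 0.92 (SE 0.38, adjusted p = 0.212). Both had an unadjusted p-value under 0.05, and DESeq2 called neither, while 2.15% of all genes passed. Without the first DCN day library the log2 fold changes were 0.63 and 0.54 (adjusted p = 0.39 and 0.398). Gfap in SCGX compared with DCN by day had a log2 fold change of -1.42 (SE 0.44, adjusted p = 0.158), and -0.89 without that library (adjusted p = 0.162).

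At night no difference among Sham, DCN and SCGX glands passed for the 4 genes by edgeR or by DESeq2, and none had an unadjusted p-value under 0.05. The background was 17.2% of all genes for DCN against Sham and 20.8% for SCGX against Sham. The log2 fold changes against Sham were negative for all 4 genes in both groups, from -0.21 to -0.52 in DCN and from -0.25 to -0.93 in SCGX, with the third Sham night library above every other in vivo library for each gene. Without it all 8 values were positive, led by Gfap in DCN at 0.89 (adjusted p = 0.0992) and S100b in DCN at 0.66 (adjusted p = 0.187). The sign of each of these 8 differences was thus set by that library. Between SCGX and DCN at night the log2 fold changes were between -0.59 and 0.12, and no gene passed by edgeR (0.0% of 15575, with 606 at an unadjusted p-value under 0.05 and 9 called by DESeq2).

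Sham glands were compared with Control glands to see what the operation alone left behind. By day the log2 fold changes were -0.73 for Gfap, -0.36 for Aqp4, -0.64 for S100b and -0.01 for Vim, with none called by edgeR or by DESeq2 and no unadjusted p-value under 0.05, against 0.0316% of all genes. Single libraries moved these values, with S100b at -1.78 without the first Sham day library (adjusted p = 0.0586) and Gfap at -0.11 without the second Control day library and -1.14 without the first. At night Gfap had a log2 fold change of 2.16 (SE 0.77, unadjusted p = 0.0267 and adjusted p = 0.655 by edgeR) and S100b one of 1.64 (SE 0.59, unadjusted p = 0.0281 and adjusted p = 0.655). No gene passed in this comparison (0.0% of 15776, with 1096 at an unadjusted p-value under 0.05), and DESeq2 called 59 genes and none of the 4. Aqp4 had a log2 fold change of 1.31 and Vim one of 0.61 (adjusted p = 0.655 for both). Without the third Sham night library the values were 0.88 for Gfap, 0.72 for S100b, 0.37 for Aqp4 and 0.13 for Vim (adjusted p = 0.995 for all).

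The association with the share of read-pairs on genes high in mixed tissue was described across the 24 in vivo libraries. The third Sham night library was the highest of the 24 for all 4 genes, at 5.63-fold the mean of the other Sham night libraries for Gfap, 3.96-fold for Aqp4, 3.92-fold for S100b and 2.301-fold for Vim. The first DCN day library was the second highest for Gfap, Aqp4 and S100b, at 2.32-, 1.92- and 2.50-fold the mean of the others in its group, but for Vim it was in place 16 of 24, at 0.928-fold. The level of Gfap (log2) correlated with the log2 share of read-pairs on genes of mixed tissue with r = 0.727 (rho = 0.713, n = 24), and with r = 0.563 without those 2 libraries. The same r was 0.747 for Aqp4 (0.377 without them), 0.616 for S100b (0.437) and 0.469 for Vim (0.337). In the 9 cultures, which came from another experiment, the share was 0.419% to 0.519%, higher than in 22 of the 24 in vivo libraries. Aqp4 was lower in all cultures than in any in vivo library, while the ranges of Gfap and S100b overlapped those in vivo. The list of 1928 genes was chosen after these libraries had been seen, and the part of this share in the differences was not tested. Gfap and Aqp4 were themselves over 8-fold higher in mixed tissue than in both single pineal libraries. Other genes of the same cells may be in the list, so these r values can be positive through the way it was made.

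**Figure D3:**
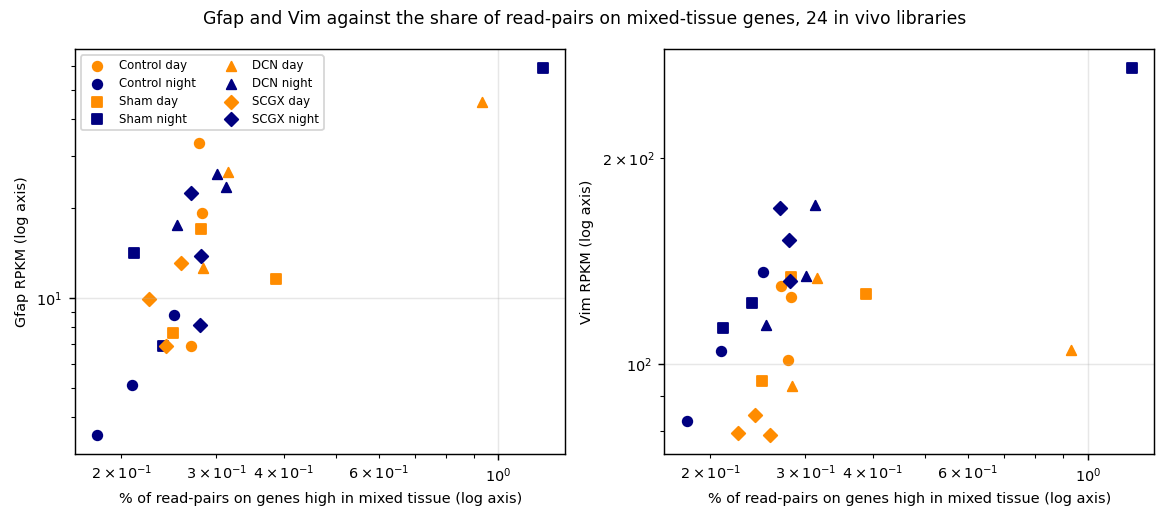
Level of Gfap (left) and of Vim (right), in RPKM, against the share of read-pairs on the 1928 genes far higher in mixed tissue, in percent, for the 24 in vivo libraries, on log axes. The libraries at 1.21% and 0.930% are the third Sham night and the first DCN day library. Gfap is high in both, at 59.3 and 45.5 RPKM, while Vim is high only in the first of them, at 271.4 against 105.1 RPKM.

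In organ culture Gfap and S100b were lower with DBcAMP than in Untreated glands, and NE gave no call. Gfap was at 8.11, 4.97 and 3.73 RPKM in Untreated glands (5.60 ± 2.26), at 3.30, 5.58 and 2.84 with NE (3.91 ± 1.47) and at 2.16, 1.98 and 4.20 with DBcAMP (2.78 ± 1.23). The third DBcAMP library overlapped the Untreated range, and Gfap fell 1.78-fold with DBcAMP (log2 fold change -0.83, SE 0.29, adjusted p = 0.036). S100b was at 18.3, 21.6 and 15.3 RPKM in Untreated glands (18.4 ± 3.17), at 11.9, 20.4 and 20.8 with NE (17.7 ± 5.01) and at 13.7, 10.5 and 12.8 with DBcAMP (12.3 ± 1.64). All 3 DBcAMP libraries were below all 3 Untreated libraries in RPKM, and S100b fell 1.33-fold in the test (log2 fold change -0.41, SE 0.14, adjusted p = 0.028). RPKM is scaled to library totals alone, and by library size only the log2 fold change was -0.57. Whether the libraries also lie apart after the normalization used in the test was not checked. These 2 of 4 calls compare with 41.7% of all genes in the DBcAMP comparison.

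Neither of these calls was stable to the loss of single libraries. Both were lost without the first Untreated library, without the second Untreated library or without the second DBcAMP library, and Gfap also without the first DBcAMP library. Gfap was lost with DESeq2 (adjusted p = 0.155), and S100b in the model of all 9 cultures (adjusted p = 0.0667). Over the alternatives the adjusted p was between 2.12e-05 and 0.191 for Gfap and between 0.00224 and 0.14 for S100b. Vim was at 256.1, 303.0 and 190.8 RPKM in Untreated glands (249.98 ± 56.3), at 188.8, 227.6 and 230.5 with NE (215.6 ± 23.3) and at 184.8, 159.0 and 207.5 with DBcAMP (183.7 ± 24.3). Its ranges overlapped, with a log2 fold change of -0.28 with DBcAMP (SE 0.14, adjusted p = 0.117), and Vim passed without the third Untreated library (adjusted p = 0.0128), by library size only (adjusted p = 0.024) or with no filter on low counts (adjusted p = 0.00227). Aqp4 stayed between 1.02 and 1.77 RPKM in all 9 cultures, with group means of 1.21 ± 0.204 in Untreated, 1.34 ± 0.379 with NE and 1.05 ± 0.031 with DBcAMP. Its log2 fold change with DBcAMP was -0.04 (SE 0.18, adjusted p = 0.87), at a depth of only 67 to 118 read-pairs per library.

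With NE none of the 4 genes was called, against 30.1% of all genes. No unadjusted p-value was under 0.05 and DESeq2 also called none. The log2 fold changes were -0.41 for Gfap (SE 0.25, adjusted p = 0.239), 0.24 for Aqp4 (SE 0.20, adjusted p = 0.404), 0.04 for S100b (SE 0.17, adjusted p = 0.888) and -0.11 for Vim (SE 0.12, adjusted p = 0.542). Compared directly, NE and DBcAMP did not differ detectably for any of the 4 genes, where 6.34% of all genes passed. The largest of these differences relative to its error was that of S100b (log2 fold change 0.46, SE 0.18, unadjusted p = 0.023 and adjusted p = 0.165 by edgeR), which DESeq2 did not call and which passed without the first NE library (adjusted p = 0.0153). The fall with DBcAMP was therefore not shown to be absent with NE.

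All 4 genes passed the test between Untreated cultures and Control day glands, taken directly from the animal, against 55.4% of all genes. Aqp4 was 11.9-fold lower in culture (log2 fold change -3.57, SE 0.37, adjusted p = 1.23e-05), at 1.19, 1.43 and 1.02 RPKM against 8.71, 24.8 and 12.2. S100b was 3.42-fold lower (log2 fold change -1.77, SE 0.21, adjusted p = 4.08e-05) and Gfap 3.37-fold lower (log2 fold change -1.75, SE 0.46, adjusted p = 0.00721).

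Vim went the other way and was 2.24-fold higher in culture (log2 fold change 1.17, SE 0.15, adjusted p = 5.54e-05). The ranges were apart for Aqp4, S100b and Vim, while the first Untreated library overlapped the Control day range for Gfap. The share of all genes with ranges apart was not counted, so whether this is particular to these genes is not known. All 4 calls remained when any 1 of the 6 libraries was left out. At the stricter adjusted p-value of 0.001, Aqp4, S100b and Vim passed here, as did 26.7% of all genes. The other 7 of the 10 calls made over all comparisons had adjusted p-values between 0.00121 and 0.0378. The cultured glands came from another experiment, from older rats of 1 sex, and were sequenced apart, so that culture, age, sex and batch cannot be told apart in this comparison.

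The ratio of 2 of the genes in the same library, per length, also separated the experiments. Vim was between 3.03 and 14.9 times the level of Aqp4 in vivo (median 8.58) and between 129 and 215 times in culture (median 186). Gfap and Aqp4 were close to equal in vivo, with a Gfap to Aqp4 ratio between 0.563 and 1.59 (median 1.04), and Gfap was the higher in every culture, with a ratio between 1.83 and 6.83 (median 3.15). The ratio of S100b to Gfap overlapped between the experiments, at 1.40 to 7.46 in vivo and 2.25 to 7.30 in culture.

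Against the mixture of other tissues, Gfap, Aqp4 and S100b were low in the pineal gland and Vim was not. These are single libraries with no replicates, and the intervals are exact 95% binomial intervals that cover counting error only. Gfap was at 241.2 RPKM in mixed tissue and at 14.0 and 8.59 in the day and night pineal libraries. After median-of-ratios normalization, mixed tissue was higher for Gfap by 17.2-fold than pineal day (16.2 to 18.3) and by 24.1-fold than pineal night (22.6 to 25.8). Aqp4 was at 147.9 RPKM in mixed tissue and at 8.85 and 12.3 in the pineal libraries, with ratios of 16.6 (15.7 to 17.6) and 10.3 (9.91 to 10.8).

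S100b was at 445.4 RPKM in mixed tissue and at 33.5 and 48.9 in the pineal libraries, with ratios of 13.2 (12.5 to 14.0) and 7.82 (7.52 to 8.14). Vim was at 100.2 RPKM in mixed tissue and at 163.0 and 161.4 in the pineal libraries, so that pineal day was 1.63-fold (1.58 to 1.69) and pineal night 1.88-fold (1.82 to 1.93) the higher. A ratio over 8 in favor of mixed tissue was found for 3 of the 4 genes by day and 2 of 4 at night, against 13.0% and 14.2% of all genes. By library size alone S100b at night was also over 8, at 9.11.

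Across the 24 in vivo libraries Gfap and Aqp4 varied together more closely than any other pair of the 4. Their log2 levels correlated with r = 0.888 (rho = 0.821), and with r = 0.818 without the libraries that stood apart, which were also the libraries farthest from the median of Gfap. Their deviations from the group means correlated with r = 0.915, and 0.848 without those libraries. S100b correlated with Gfap at r = 0.733 (rho = 0.686, and r = 0.617 without those libraries) and with Aqp4 at r = 0.725 (rho = 0.558, and r = 0.597). The r of Vim with the other 3 was between 0.386 and 0.421, and between 0.149 and 0.281 without those libraries. The libraries share groups, depth and makeup of the pools, and these values are a description.

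**Figure D4:**
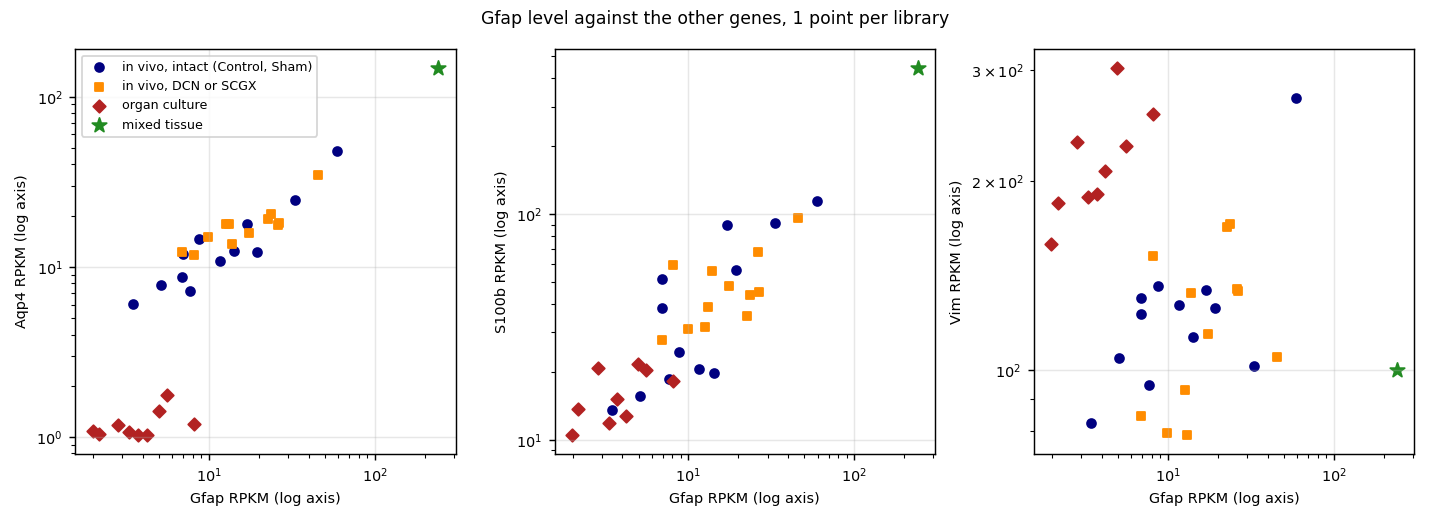
Level of Aqp4, S100b and Vim against that of Gfap, in RPKM on log axes, with 1 point per library for the in vivo glands, the cultures and mixed tissue. Aqp4 rises with Gfap in vivo (r = 0.888) and is low in all cultures, whereas the Vim points of the cultures lie above most in vivo points at a lower level of Gfap.

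Of 15871 genes, Aqp4 was in place 3 among those most like Gfap by this r, and Gfap in place 3 among those most like Aqp4. The gene most like Aqp4 was ENSRNOG00000018798 (r = 0.943, and 0.901 without the 2 libraries that stood apart), which was second for Gfap (r = 0.896). In the 9 cultures its r with Aqp4 was 0.118. The gene most like Vim was ENSRNOG00000020192, with r = 0.928 in vivo and 0.658 in culture. In culture the closest pair of the 4 was S100b and Vim (r = 0.816, rho = 0.767, n = 9), and Gfap and Aqp4 had r = 0.342 (rho = 0.15).

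The 4 genes also varied more between replicate pools than most genes with at least 100 read-pairs. The SD of log2 levels within the 8 in vivo groups was 0.86 for Gfap, 0.739 for S100b, 0.616 for Aqp4 and 0.298 for Vim, where the median gene had 0.138. Of 10388 genes with a mean of at least 100 read-pairs, 99.2% had a smaller SD than Gfap, 98.8% than S100b, 97.97% than Aqp4 and 88.4% than Vim. Without the libraries that stood apart the SD was 0.697 for Gfap, 0.608 for S100b, 0.483 for Aqp4 and 0.222 for Vim. In culture it was 0.534 for Gfap, 0.302 for S100b, 0.246 for Aqp4 and 0.228 for Vim.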

How the data were processed

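RNA was measured in 36 libraries of rat tissue, all mapped to groups by their labels. The authors made stranded total RNA libraries, aligned read-pairs with STAR 2.3.1y to rn4 with Ensembl annotation and counted them per gene by the union rule of HTSeq. These deposited counts are whole numbers, not normalized. The RPKM values deposited by the authors equal those counts scaled to gene length and library total. Levels here are RPKM, and tests used counts.

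Each comparison was fitted for the libraries compared on all genes whose mean normalized count reached 5, with edgeR 4.0.16 in R 4.3.3 (TMM, quasi-likelihood test, Benjamini-Hochberg adjustment). A call is an adjusted p-value under 0.05. The model's SE is the log2 fold change divided by the root of F. Correlations used log2 CPM with a prior count of 2. For single libraries a ratio over 8 was counted. The authors' size factor method, median of ratios, was used there. No replicate pair agreed within sampling noise (lowest chi-square per degree of freedom 5.78 over 33 pairs). With 3 pools a group, p-values judge a difference between groups against the spread between pools, which was estimated with the help of all genes tested. Counting error limits Aqp4 and Gfap most, at 67 and 75 read-pairs in their lowest libraries.

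Alternatives were DESeq2 1.42.0, median-of-ratios factors, library size only, no filter, a minimum of 10 read-pairs in each library, the replicate number as a block, all libraries of an experiment in 1 model, and leaving out libraries. The genes named are the 4 members and at most 2 identifiers of genes most alike in pattern. The members and lists were chosen with earlier results of these data known. The gene table used here names none of the 29516 identifiers, so lists of other glial genes and of markers of other cell types were not analysed here.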

Additional observations from a re-analysis of the deposited data

How the results depend on the processing

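Of 560 log2 fold changes of the 4 genes under alternatives that kept every library or left out both libraries that stood apart, 537 kept their direction and their side of the threshold, 10 reversed, 7 lost the call and 6 gained it. The calls in Untreated culture against Control day and of S100b in Control night vs day remained under every alternative run. With DESeq2 the number of the 4 genes called was 1 instead of 2 in Control night vs day and in DBcAMP vs Untreated, and 1 instead of 0 in SCGX vs DCN at day. In 1 model per experiment it was 1 instead of 2 in Control night vs day and in DBcAMP vs Untreated, 1 instead of 0 in Sham night vs day, and 0 instead of 1 in SCGX night vs day and in SCGX vs Sham at day. Without a filter it was 1 instead of 0 in NE vs Untreated and in NE vs DBcAMP, and it was 3 instead of 2 in DBcAMP vs Untreated without a filter and by library size only. The causes were not tested.

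In 0 of 31 pairs of groups did every same-numbered pair of libraries deviate together (r over 0.1). This rule cannot show that libraries of the same number shared no handling or batch. A replicate block left 1 call instead of 2 in Control night vs day, and it turned S100b to 0.038 in DCN night vs day, Gfap to 0.219 and S100b to 0.093 in DCN vs Sham at night, S100b to 0.061 in SCGX vs Sham at night and S100b to -0.041 in the interaction of SCGX and Sham. The block changed no other call.

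By library size only, Vim in Control night vs day was -0.144 and S100b in NE vs Untreated -0.058. Without both libraries that stood apart, the interaction of DCN and Sham was 0.257 for Gfap, 0.888 for S100b and 0.168 for Vim, and the median r of the 6 pairs of genes was 0.439.

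When single libraries were left out, the number called was between 1 and 2 in Control night vs day and in SCGX night vs day, between 0 and 3 in SCGX vs Sham at day and in DBcAMP vs Untreated, and between 0 and 1 in NE vs DBcAMP and in the interaction of SCGX and Sham. Log2 fold changes without a call in the full data crossed 0 as follows. In night vs day, Control ran from -0.922 to 0.042 for Aqp4 and from -0.129 to 0.183 for Vim, and Sham from -0.018 to 1.64 for Gfap and from -0.384 to 1.60 for S100b. DCN ran from -0.641 to 0.236 for Gfap, from -0.529 to 0.024 for Aqp4 and from -0.370 to 0.501 for S100b, and SCGX from -0.285 to 0.092 for Aqp4. By day, DCN vs Sham ran from -0.221 to 1.49 for S100b, SCGX vs Sham from -0.504 to 0.079 for Gfap and from -0.735 to 0.753 for S100b, and Sham vs Control from -0.775 to 0.211 for Aqp4 and from -0.114 to 0.121 for Vim. At night, DCN vs Sham ran from -0.794 to 0.886 for Gfap, from -0.840 to 0.355 for Aqp4, from -0.610 to 0.660 for S100b and from -0.586 to 0.043 for Vim. SCGX vs Sham ran from -1.38 to 0.279 for Gfap, from -1.10 to 0.070 for Aqp4, from -0.679 to 0.567 for S100b and from -0.460 to 0.146 for Vim, and SCGX vs DCN from -0.213 to 0.143 for S100b. In culture, NE vs Untreated ran from -0.078 to 0.266 for S100b and from -0.267 to 0.058 for Vim, and DBcAMP vs Untreated from -0.149 to 0.097 for Aqp4. The interaction of DCN and Sham ran from -1.70 to 0.287 for S100b and from -0.430 to 0.188 for Vim, that of SCGX and Sham from -1.14 to 0.535 for Gfap and from -1.05 to 0.953 for S100b, and that of SCGX and DCN from -0.072 to 0.478 for Aqp4.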
